A study of Mus musculus with 9 samples.

Results

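The creatine cycle genes described here are Gatm, Gamt, Slc6a8, Ckb, Ckmt1, Ckmt2 and Alpl. They were chosen by symbol, as the genes of creatine synthesis, creatine uptake, phosphocreatine formation and phosphocreatine breakdown, and all 7 were found among the 55416 genes of the count table. Of these 7, 6 had a mean of at least 1 CPM (counts scaled to a column total of 1000000) over the 9 columns of the table, and Ckmt1 did not. The animals were C57BL/6J mice expressing Cas9, the nuclease that cuts DNA where a guide RNA directs it, aged 8 to 10 weeks. AAV8, an adeno-associated virus vector, was injected into the brown adipose tissue (BAT) and carried either an sgRNA against UCP1 (AAV8-UCP1 sgRNA, 4 samples) or a control guide (AAV8-Control sgRNA, 5 samples). All mice were then housed at 22 °C for 14 days, and RNA of the interscapular BAT was sequenced in bulk. What promoter drives Cas9, which share of the cells the vector reached and whether animals were pooled is not stated in the labels.

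The 9 columns of counts are each named by a number and the abbreviation BAT, and the number occurs in 0 of the sample labels. The columns are called H, J, K, L, M, P, Q, R and S here, in the order of those numbers, and the letters stand for nothing else. They were taken as 9 samples of brown fat whose guide is unknown, and no value below compares the guides. Both guides are expected among the columns, so a difference between columns that comes with the guide cannot be told apart from any other. Column totals ran from 15460829 to 17909534 counts, of which mitochondrially encoded genes took 22.3 to 33.9%, and none of the 36 pairs of columns was identical. The markers of the labelled tissue were present: the summed level of 10 brown adipocyte genes, among them Adipoq, Cidea, Fabp4 and Ucp1, lay between 9495.0 and 13112.8 CPM. The sum was lowest in column M and highest in column K. These were also the lowest and highest columns of Ucp1, the target of the guide, with 396 and 4619.9 CPM, so the range of the sum holds that of Ucp1. Over the 10 genes, the median ratio of the highest to the lowest column was 1.53. Markers of other cell types were read alongside. The summed levels were 264.2 to 5014.5 CPM for 14 skeletal muscle genes, 397.1 to 629.8 for 6 endothelial genes, 110.1 to 206.1 for 4 fibroblast genes, 9.169 to 36.22 for 7 genes of nerve and glia (Dbh at 0 in every column), 19.96 to 41.17 for 5 macrophage genes and 0.8666 to 2.531 for 5 lymphocyte genes.

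Creatine is made from arginine and glycine by the successive action of GATM and GAMT, mostly outside fat, and enters cells through the transporter SLC6A8. Creatine kinases pass the phosphate of ATP to creatine, and the phosphocreatine formed normally returns it to ADP. In the creatine cycle of thermogenic fat, phosphocreatine is instead hydrolysed, so that ATP is spent and heat is released without UCP1, the uncoupling protein of brown fat mitochondria. CKB, the brain-type kinase, and the tissue-nonspecific alkaline phosphatase encoded by Alpl have been placed in this cycle in brown adipocytes.

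The promoters of 3 creatine kinase genes are shown first, since Ckmt2 and Ckm had their highest and lowest levels in the same columns and Ckb did not. The genes were thus picked by their levels in these data, and a link between sequence and level was not tested. Each is the stretch of 250 bases that ends just before the RefSeq transcription start, on the GRCm38.p6 build, and is the upstream sequence of the gene on its own strand. Ckb lies on the minus strand and its window is chr12:111672339-111672588. Ckm, the muscle-type kinase shown for comparison, lies on the plus strand with its window at chr7:19410844-19411093. The Ckmt2 window, on the minus strand, is chr13:91876886-91877135. Capitals mark TATAAA, the usual letters of a TATA box, and CAGCTG, a form of the E-box that muscle regulatory factors can bind.
Ckb: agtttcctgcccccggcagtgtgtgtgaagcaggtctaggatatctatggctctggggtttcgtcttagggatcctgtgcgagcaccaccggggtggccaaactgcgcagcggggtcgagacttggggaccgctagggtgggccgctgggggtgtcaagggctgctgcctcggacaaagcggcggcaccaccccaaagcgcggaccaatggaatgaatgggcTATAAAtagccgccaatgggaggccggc
Ckm: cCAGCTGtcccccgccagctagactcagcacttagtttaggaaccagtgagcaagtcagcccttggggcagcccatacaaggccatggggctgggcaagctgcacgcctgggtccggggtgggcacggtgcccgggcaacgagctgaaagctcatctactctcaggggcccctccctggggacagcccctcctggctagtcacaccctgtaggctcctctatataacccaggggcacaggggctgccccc
Ckmt2: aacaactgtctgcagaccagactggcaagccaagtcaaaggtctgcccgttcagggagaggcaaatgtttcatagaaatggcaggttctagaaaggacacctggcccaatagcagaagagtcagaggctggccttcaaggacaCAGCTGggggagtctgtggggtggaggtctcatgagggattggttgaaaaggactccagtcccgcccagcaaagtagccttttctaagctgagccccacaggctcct
The Ckb window held TATAAA from 28 to 23 bases before the start and not the E-box letters. In the muscle-type and sarcomeric genes CAGCTG was found from 249 to 244 bases before the start of Ckm and from 107 to 102 bases before that of Ckmt2. Neither window held the exact letters TATAAA. The Ckm window does hold tatataa near its end, a form that was not searched for or marked. Missing TATAAA therefore does not mean that a TATA box is missing. Both strands were searched, CAGCTG reads the same on each, and AAGGTCA, the letters of an estrogen-related receptor half-site, was in none of the 3 windows. Among 32851 RefSeq promoter windows of this length, 13% held CAGCTG, 12.4% held TATAAA and 4.08% held AAGGTCA, so a match is common and describes these letters only.

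The transcripts of the 2 enzymes that make creatine were scarce in brown fat, whereas the transporter that takes creatine up was found at a moderate and even level. Gatm, the amidinotransferase of the first step, had 0.987 CPM at the lowest (column Q), 1.68 at the median and 3.16 at the highest (column H), from 17 to 56 counts per column. Gamt, the methyltransferase of the second step, ranged from 1.11 CPM (column L) through a median of 1.97 to 3.69 (column P), from 19 to 57 counts. The column with the most Gatm was thus not the one with the most Gamt. Slc6a8 ranged from 19 CPM in column R through 24.9 to 30.1 in column H, on 337 to 533 counts, and every column of Slc6a8 lay above every column of Gatm and Gamt in level per kilobase of exon as well.

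**Figure D1:**
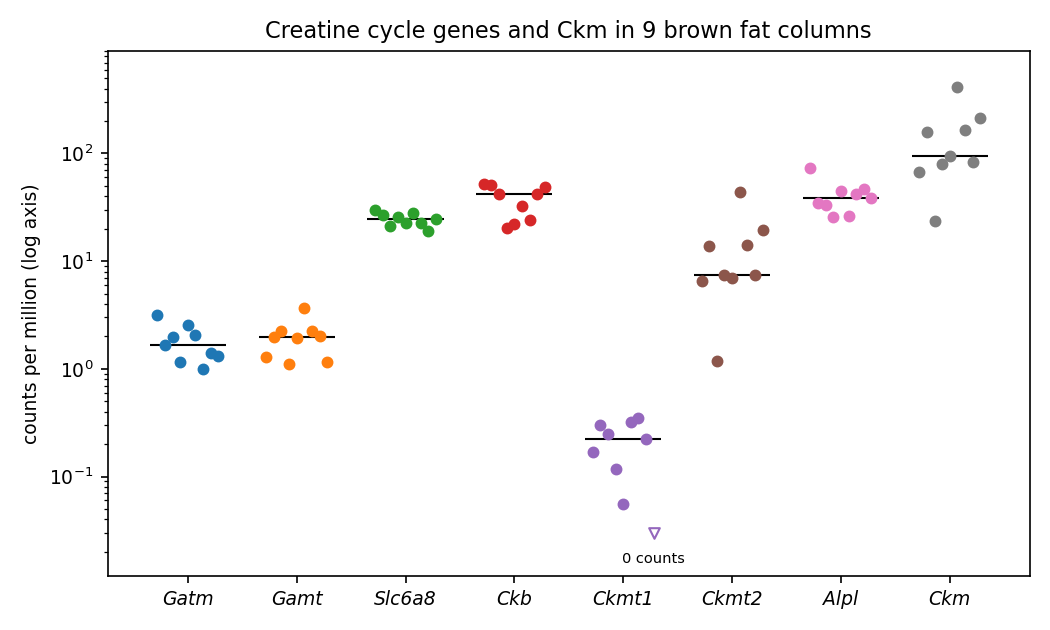
Level of the 7 creatine cycle genes and of Ckm in the 9 brown fat columns, in CPM on a logarithmic axis. Each point is a column, the line is the median, and the open triangle is the column with 0 counts of Ckmt1; Ckmt2 and Ckm spread over 37.2-fold and 17.7-fold ranges while Slc6a8 stays between 19 and 30.1.

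The ratio of the highest to the lowest column was 1.59 for Slc6a8, and 39.4% of the 12260 genes with a mean of at least 1 CPM varied less. For all those genes the median ratio was 1.7, with quartiles of 1.46 and 2.23. Gatm had a ratio of 3.2 and Gamt 3.32, above those of 89.3% and 90.1% of the genes, but at such low counts sampling alone widens the ratio. Without column P the ratio of Gamt was 2.04.

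Among the kinases, Ckb, the cytosolic brain-type enzyme, was found in every column. It had 52.1 CPM in column H, 51.1 in column J, 49.2 in column S, 42.1 in column K and 41.7 in column R. The other columns were lower, with 32.6 CPM in column P, 24 in column Q, 22.2 in column M and 20.2 in column L. Its highest column was 2.58 times its lowest, a wider range than in 82.3% of the genes tested. The exact Poisson intervals (95%, counting error only) of the highest column, 48.8 to 55.6 CPM, and the lowest, 18.1 to 22.4 CPM, did not overlap. These columns were picked as the extremes, so this is no test of a difference between them.

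Ckmt1 and Ckmt2 encode the ubiquitous and the sarcomeric kinase of the mitochondrial intermembrane space. Ckmt1 was barely detected: its counts ran from 0 to 6 per column with a median of 4, or 0.225 CPM. In column S it had 0 counts, and at that depth 3 counts would be 0.182 CPM. Ckmt2 was the most variable member, with 1.18 CPM in column K, 6.6 in column H, 7.04 in column M, 7.48 in column R, 7.49 in column L, 13.8 in column J, 14.2 in column Q, 19.4 in column S and 43.8 in column P. The highest and lowest columns stood apart from the remaining 7 and were 37.2-fold apart, a ratio that 99.8% of the genes tested did not reach. It was 6.64 without column K and 16.5 without column P. Ckm, the cytosolic muscle-type kinase, ranged 17.7-fold, from 23.6 CPM in column K through a median of 95.7 to 418 in column P, so the same columns were its extremes. A ratio over 10 was found in 221 of the 12260 genes, or 1.8%.

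Alpl had 25.7 CPM in column L, 26.3 in column P, 33.1 in column K, 34.9 in column J, 38.8 in column S, 41.8 in column Q, 45.3 in column M, 47.2 in column R and 72.9 in column H. The phosphatase transcript was thus found in every column, with 8 columns between 25.7 and 47.2 CPM and column H apart from them. The ratio of its highest to its lowest column was 2.84, above that of 85.8% of the genes tested, and 1.84 without column H. That column also had the lowest share of mitochondrially encoded counts, 22.3%. The share was 24.9% in column R, 25.8% in column M and 26.5% in column Q, the columns next highest in Alpl. It was 31.5 to 33.9% in the other columns. With mitochondrially encoded genes and Ucp1 left out of the column sum, the ratio of Alpl was 2.43. The part of this share in the levels of Alpl was not tested. The other alkaline phosphatase genes were all but silent, with Alpi and Alppl2 at 0 counts in every column and Akp3 with a single count in column L. Phospho1, a phosphatase of phosphocholine and phosphoethanolamine, had 3.33, 4.97 and 7.05 CPM at the lowest, median and highest column.

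**Figure D2:**
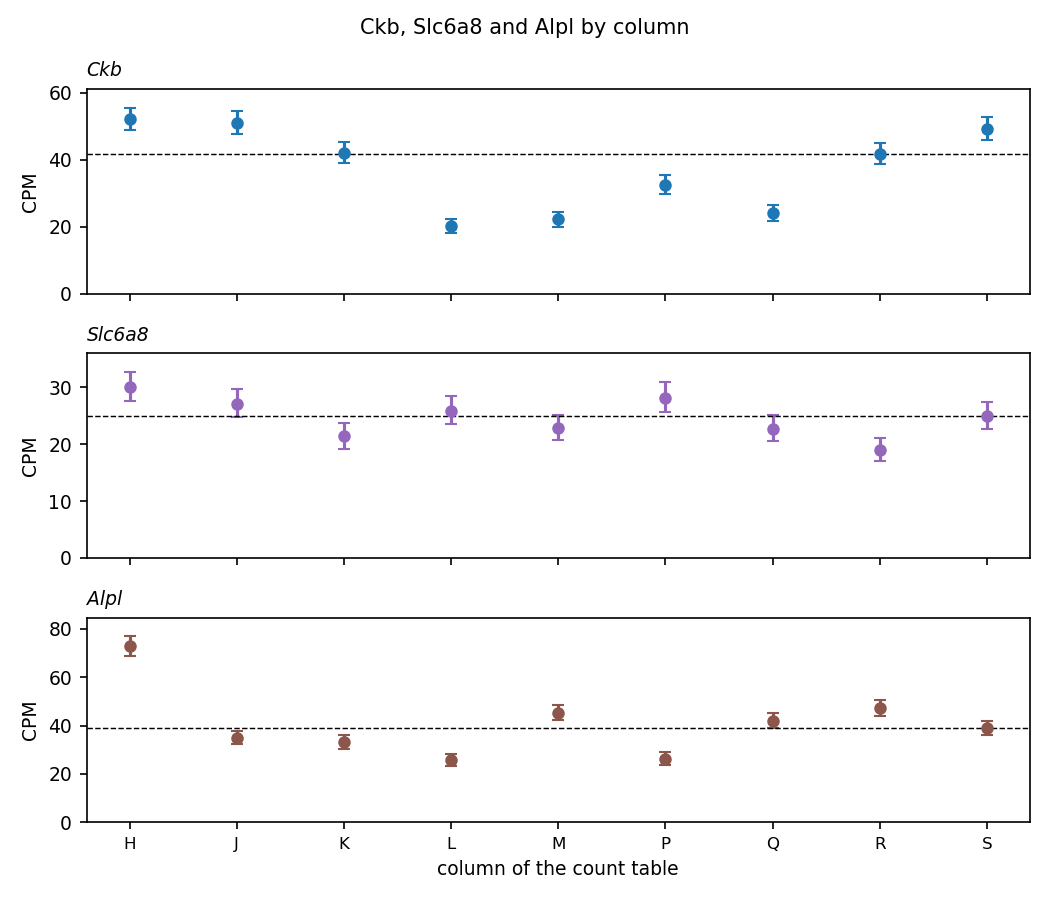
CPM of Ckb, Slc6a8 and Alpl in each of the 9 columns, on linear axes that start at 0. Points are the columns, bars the exact 95% Poisson interval of counting error and the broken line the median; Ckb lies between 20.2 and 52.1, Slc6a8 between 19 and 30.1, and Alpl between 25.7 and 72.9.

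**Figure D3:**
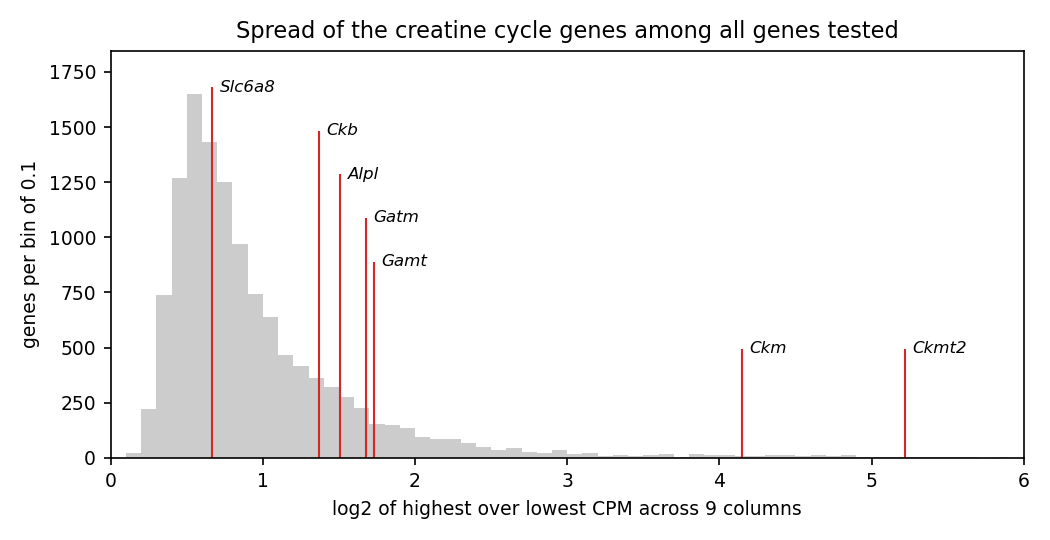
Distribution of the log2 ratio of the highest to the lowest CPM across the 9 columns, for the 12260 genes with a mean of at least 1 CPM, as the number of genes in each bin. Red lines mark the 6 members above that mean and Ckm; Slc6a8 lies near the peak of the distribution, and Ckm and Ckmt2 in its far tail.

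To order the members among themselves, levels were divided by the length of each gene's merged exons in kilobases. The median was highest for Ckb, 14.4 CPM per kilobase, and next for Alpl, 9.62, but Ckb exceeded Alpl in only 6 of 9 columns and their ranges overlapped. Ckmt2 followed with 5.04 CPM per kilobase and Slc6a8 with 4.78. These ranges overlapped as well: Alpl was above Ckmt2 in 6 of 9 columns, and Ckmt2 above Slc6a8 in 7 of 9. Gamt, 1.37 CPM per kilobase, was below Slc6a8 in all 9 columns with no overlap. It was above Gatm, 0.558, in 8 of 9 columns, and Ckmt1, 0.0901, lay below Gatm without overlap. Ckb and Alpl, whose lowest columns were at 6.97 and 6.37 CPM per kilobase, lay above the highest column of Slc6a8, 5.77. Ckmt2 reached down to 0.791 CPM per kilobase in column K, within the range of Gamt.

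The make-up of the creatine kinase transcripts differed widely between columns. Of the summed counts of Ckb, Ckm, Ckmt1 and Ckmt2, from 1085 to 7652 per column, Ckm had a median share of 74.3%, Ckb 18.7%, Ckmt2 6.13% and Ckmt1 0.133%. Ckb took 62.7% (Wilson 95% interval 59.8 to 65.5%) in column K and 6.59% (6.05 to 7.16%) in column P. Ckm took 35.2% (32.4 to 38.1%) in column K and 84.5% (83.7 to 85.3%) in column P, and held more than 50% in 8 of 9 columns. Shares are parts of a common sum, so when the share of Ckm rises the others must fall. In level, Ckb was at 42.1 CPM in column K and 32.6 in column P, and Ckm at 23.6 and 418. Per kilobase of exon the median shares were 69.6% for Ckm, 17.6% for Ckb, 11.3% for Ckmt2 and 0.147% for Ckmt1. With Ckm left out, Ckb made up a median of 75.8% of the remaining kinase counts, from 42.5% in column P to 96.7% in column K. Ckmt2 made up 24% at the median, from 2.7% in column K to 57.1% in column P, the only column in which it exceeded Ckb.

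**Figure D4:**
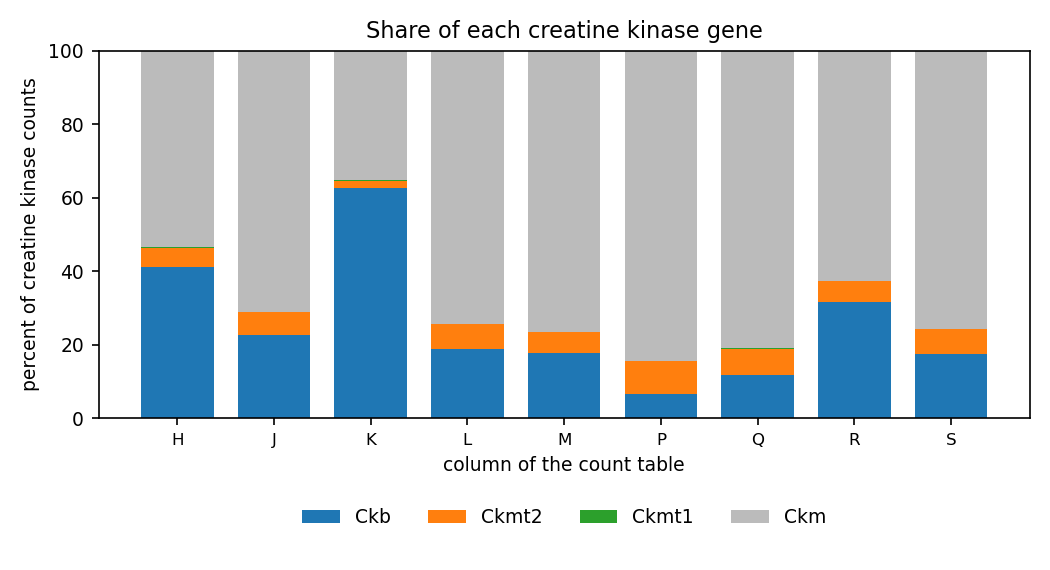
Share of each of the 4 creatine kinase genes in their summed counts, in percent, stacked for each of the 9 columns. Ckm takes the largest part in 8 columns, and Ckb 62.7% in column K; Ckmt1, at most 0.369%, is hardly visible.

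Ckmt2 and Ckm are also kinases of skeletal muscle, which lies next to the interscapular fat, and their levels were therefore set beside muscle markers. All 14 muscle genes were detected in every column. Without Ckm, the summed level of the other 13, which include Acta1, Myh4 and Atp2a1, was 240.5 CPM in column K, 879.8 in column H, 1035.7 in column R, 1091.0 in column L, 1211.1 in column M, 1901.8 in column J, 2042.0 in column Q, 2871.8 in column S and 4596.3 in column P, a 19.1-fold range. The lowest and the highest column were the same as for Ckmt2 and Ckm. In bulk tissue a change in the number of cells of a type and a change in the RNA per cell cannot be told apart.

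Ckmt2 had a Spearman rho of 0.95 with these markers over the 9 columns. The exact two-sided permutation p was 0.000353 over 362880 orderings of the columns. After Benjamini-Hochberg adjustment over all 12260 genes tested the exact permutation p was 0.0698, above the threshold of 0.05. Pearson's r of log2(CPM + 1) was 0.99 with an exact permutation p of 2.48e-05, 0.0076 after adjustment. Without columns P and S, the farthest from the median of the markers in CPM, r over the 7 columns left was 0.993 (exact permutation p = 0.00179) and rho 0.893 (exact permutation p = 0.0123). On the log2 scale columns K and P were the farthest, and without them r was 0.982 (exact permutation p = 0.00179) and rho again 0.893 (exact permutation p = 0.0123), a check added after seeing the data. The rank call changed with the scaling: with edgeR's TMM library sizes, DESeq2's size factors, or a column sum without Ucp1 and mitochondrially encoded genes, rho was 0.983 and the adjusted exact permutation p 0.0127, 0.0132 and 0.0184. Without column M rho was 1 and the adjusted exact permutation p 0.0276. The adjusted p over all 17 alternatives ran from 0.0076 to 0.909, the latter over 7 columns without K and P. Where columns are left out, the smallest p that can be reached is also higher.

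Ckm had a rho of 0.983 with the same markers (adjusted exact permutation p = 0.021) and an r of 0.993. This rank call was not met without column H, J, K, M, P, Q or S, where rho was 0.976 and the adjusted exact permutation p 0.0657 to 0.143. Without columns K and P together, rho was 0.964 and the adjusted exact permutation p 0.681. Fewer columns raise the smallest p that can be reached, so these values cannot tell whether the call rests on single columns. The ratio of Ckmt2 to Ckm ranged 2.11-fold, less than the level of either gene. It lay between 7.35 and 10.5 Ckmt2 counts per 100 Ckm counts in 8 columns and was 4.97 in column K, the column with the least of both and only 19 counts of Ckmt2.

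None of the 6 members tested, Ckmt2 included, passed the rank test with CPM of the column sum. Spearman's rho with the muscle markers was -0.283 for Gatm, 0.217 for Gamt, 0.283 for Slc6a8, -0.183 for Ckb and -0.283 for Alpl, and the adjusted exact permutation p was 0.996 for each of these. The sign for Slc6a8 turned without columns K and P, to -0.214. The sign for Gamt turned without column P, to -0.119. For Ckb it turned without column H, to 0.0952, and with the column sum that leaves out Ucp1 and mitochondrially encoded genes, to 0.0833. Of all genes tested, 44 or 0.359% were called, 43 of them positive, and 546 had an unadjusted exact p under 0.05. The call was met by 6 of the 13 markers themselves, and Pearson's r called 93 genes or 0.759%. With a column left out, the count was 0 without column K, P, Q or S and 13 to 26 without any other column. Without K, P, Q or S, 828, 583, 695 and 552 genes had an unadjusted p under 0.05. Fewer columns raise the smallest p that can be reached, so these counts cannot tell whether the 44 calls rest on single columns. The part of muscle in the levels of Ckmt2 was not tested.

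**Figure D5:**
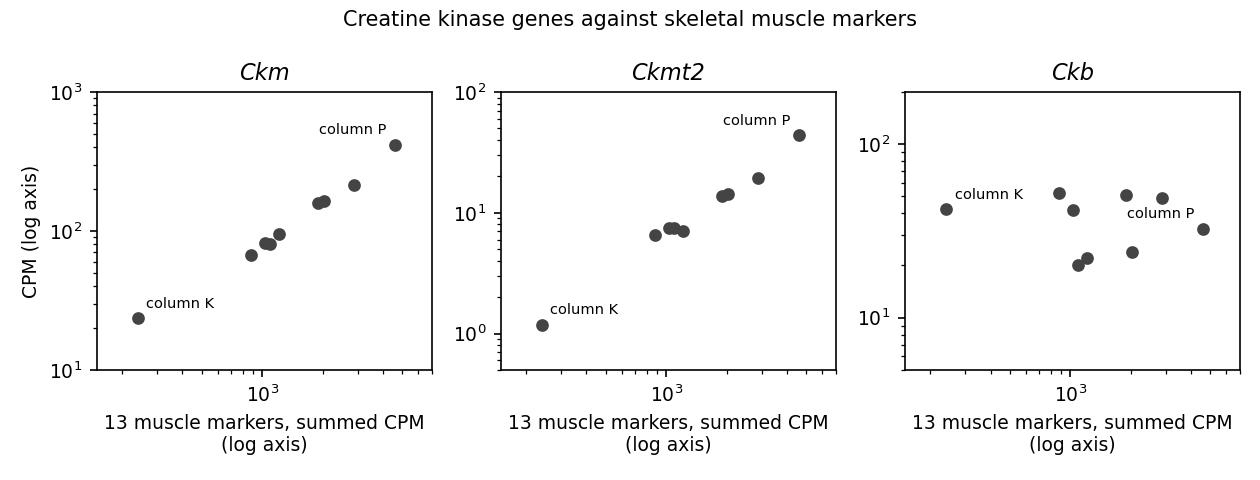
CPM of Ckm, Ckmt2 and Ckb against the summed CPM of 13 skeletal muscle markers, 1 point per column, both axes logarithmic. Ckm and Ckmt2 order the columns much as the markers do, from column K to column P (rho 0.983 and 0.95), and Ckb does not (rho -0.183).

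Over the 9 columns pooled, the members showed no detectable relation with each other. These columns lie on both sides of a gap in Ucp1, 4 below it and 5 above. Relations between and within those groups of columns therefore cannot be told apart here. Of the 15 pairs among the 6 members tested, 0 were called by Spearman's rho with exact two-sided permutation p adjusted over all genes, and 0 had an unadjusted p under 0.05. The value of rho ran from -0.45, for Gatm with Ckmt2, to 0.417, for Gatm with Slc6a8. For Ckb and Alpl, the kinase and the phosphatase placed in the cycle, rho was 0.367 (exact permutation p = 0.336, adjusted p 0.89 over the genes tested with Ckb and 0.628 over those tested with Alpl). With 9 columns, moderate relations can pass unseen, and Pearson's r also called 0 pairs. Across all 12259 other genes, the share called was 0% with Gatm, 0% with Gamt, 0% with Slc6a8 and 0% with Ckb, where 216, 424, 351 and 755 genes had an unadjusted p under 0.05. It was 0.139% (17 genes) with Ckmt2 and 0.114% (14 genes) with Alpl, and all of these were positive.

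Neither count was stable. For Ckmt2 it was 61 with TMM library sizes, 59 with DESeq2's size factors, 55 with the column sum that leaves out Ucp1 and mitochondrially encoded genes, 107 by Pearson's r and 5 with no filter on low counts. It was 0 without column H, J, K, P, Q or S, with 471 to 946 genes at an unadjusted p under 0.05. A column fewer also raises the smallest p that can be reached, so these drops to 0 cannot be laid to single columns. With Alpl, 2292 genes or 18.7% had an unadjusted p under 0.05. This share also pools both sides of the gap in Ucp1, and the part of that gap in it was not tested. The count called was 201 among genes with a mean of at least 10 CPM, 10 of them negative, and 137 by Pearson's r, 15 of them negative. It was 0 with TMM library sizes, with DESeq2's size factors and with the column sum that leaves out Ucp1 and mitochondrially encoded genes, where 1898, 1892 and 1311 genes had an unadjusted p under 0.05, and 0 with no filter on low counts, where 2819 did. It was also 0 without any column other than column L, with 1676 to 2303 genes at an unadjusted p under 0.05. The same limit on the smallest p holds there.

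For each member up to 3 genes of at least 10 CPM on average whose order of columns was most like its own were listed by rho, a choice by likeness that carries no test. Nearest to Ckmt2 were Synpo2, Tpm2 and Apobec2, each with a rho of 1. Tpm2, a tropomyosin of muscle, ranged from 32.3 CPM in column K to 501 in column P, and Apobec2, a deaminase family member of striated muscle, from 2.23 to 44.4 CPM between the same columns. Nearest to Alpl were Flad1, the FAD synthetase, with a rho of 1, and Scpep1 and Atp6v1d, a subunit of the vacuolar proton pump, with 0.983 each. Flad1 ranged only from 54.3 CPM in column L to 78.4 in column H. Pex6, a peroxisomal import ATPase, and Id3, an inhibitor of basic helix-loop-helix factors, were among those of Ckb, each with a rho of 0.95. Pex6 ranged from 110 CPM in column L, also the lowest of Ckb, to 142 in column J, and Id3 from 13.2 in column M to 32.5 in column J. The genes nearest to Slc6a8 were Fam102a and Gcn1l1 with 0.917 and Notch3 with 0.9. Those nearest to Gatm were Adgre5 with 0.933 and Fibp and Rps6kb2 with 0.917, and to Gamt Ino80e, Dgcr6 and P4ha1 with 0.9.

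In the 3 lists of genes around the cycle that had members at a mean of at least 1 CPM, the median ratio of highest to lowest column ran from 1.49 to 1.99. Among the cycle genes, Slc6a8 lay within that range with 1.59 and Ckb above it with 2.58. Single genes of the lists exceeded Ckb, among them Ckm with 17.7, Slc7a1 with 5.99 and Adrb1 with 3.3. Of 9 genes of creatine precursors and use, 8 had a mean of at least 1 CPM, their median ratio of highest to lowest column was 1.99, and 6 exceeded the median of 1.7 over all genes; this list holds Ckm. Mat2a, which makes the methyl donor S-adenosylmethionine, had 90.6, 142 and 186 CPM at the lowest, median and highest column, and Oat, the ornithine aminotransferase, 28.1, 36.3 and 44.8. Of 5 adenylate kinases, which interconvert ATP, ADP and AMP, 4 reached that mean, with a median ratio of 1.69 and 2 above the median of all genes. Ak3, of the mitochondrial matrix, had a median of 331 CPM and a highest of 428.

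Of 6 genes of adrenergic input, 5 reached the mean, with a median ratio of 1.49 and 2 above the median of all genes. Adra1a, an alpha-1 receptor coupled to Gq, had 65.4, 87.7 and 97.6 CPM at the lowest, median and highest column. Adrb3, the main beta receptor of adipocytes, had 130, 219 and 303, and Adrb1 15, 32.4 and 49.5. Adra1b was at 0 to 5 counts. None of these lists was tested as a set.

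No correlation of the creatine cycle genes with Ucp1 is given. It was to be withheld if the largest gap between neighbouring log2 values of Ucp1 exceeded 50% of their range, and that gap was 60.9%. The columns on either side of it numbered 4 and 5, fewer than the 6 needed for a correlation within them.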

How the data were processed

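The authors deposited whole-number counts per Ensembl gene for 9 columns, without normalization. FastQC, STAR, DESeq2 and the build GRCm39 are named per the submitters' processing notes, without versions. No source used here gives the annotation release, the counter, its strand setting or its treatment of reads that match several genes, so counts of related kinases may share reads. Symbols were matched for 52083 of 55416 genes, which hold 99.81% of the counts.

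Counts were divided by the column sum (CPM). Exon lengths came from a GRCm38 annotation and serve only levels and shares per kilobase. Spearman's rho and Pearson's r of log2(CPM + 1) were computed with numpy 2.4.6 and scipy 1.17.1 under Python 3.11.15, with exact two-sided permutation p-values adjusted by Benjamini-Hochberg over all genes with a mean of at least 1 CPM and called at 0.05. The script was tested on simulated data. Alternatives used edgeR 4.0.16 and DESeq2 1.42.0 for library sizes only. Genes named are the 7 members, Ucp1, Ckm, members of the gene lists, and for each member the 3 most alike genes of at least 10 CPM; some of these genes are not reported here. The members and lists were chosen with earlier results of these data known. Nothing states that the samples come from separate animals. The permutation p-values take every ordering of the columns as equally likely. This need not hold if columns share an animal or differ by guide, and the p-values describe these columns only. Depth was 15460829 to 17909534 counts per column; intervals cover counting error only, since PCR copies are not independent molecules. Promoter sequences are RefSeq's on GRCm38.p6; proteins were not used here.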

Additional observations from a re-analysis of the deposited data

Results flagged for a closer look

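Within the 9 columns, 14 measures were examined for a highest or lowest value whose distance to the nearest of the others exceeded Dixon's 95% critical value as a part of the whole range, and 5 did. For normally distributed values, chance alone gives such a value in about 5% of groups. The measures were taken in CPM or percent and not in log2, so that rate need not hold for skewed genes, and a flag can depend on the scale. Several of these measures also share a column.

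Column P was the highest for 3 genes: Ckmt2 at 43.8 CPM (distance 0.572 of the range), Ckm at 418 CPM (0.518) and Gamt at 3.69 CPM (0.552), the last on 57 counts. The summed muscle markers were also highest there, at 4596.3 CPM, and their part in these values was not tested.

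Alpl was at 72.9 CPM in column H, a distance of 0.543 of its range. The share of Ckmt1 in the creatine kinase counts was 0.369% in column K (0.536 of the range), which rests on 4 counts and has a Wilson 95% interval of 0.143 to 0.944%.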

How the results depend on the processing

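Levels kept within 1 SD of the columns in 87 alternatives and moved in 4: with a column sum without Ucp1 and mitochondrially encoded genes, which raises every CPM by construction, the median was 2.55 for Gatm, 36.7 for Slc6a8, 55.6 for Ckb and 56.9 for Alpl. Leaving out each column in turn gave a highest to lowest ratio of 2.04 to 3.32 for Gamt, 6.64 to 37.2 for Ckmt2 and 1.84 to 2.84 for Alpl. Median kinase shares without Ckm were 75.8% for Ckb, 0.422% for Ckmt1 and 24% for Ckmt2, and 11.3% for Ckmt2 per kilobase. The rho of Ckmt2 with the muscle markers was 0.983 with TMM library sizes, with DESeq2's size factors and with the column sum without Ucp1 and mitochondrially encoded genes; Pearson's r was 0.99, and rho was 0.929 to 1 with each column left out, of which only the value without column M (rho 1, adjusted exact permutation p = 0.0276) passed the threshold. Genes called with the markers numbered 28 at a mean of at least 10 CPM, 93 by Pearson's r, 24 with the 13 markers not tested (added after seeing the data) and 0 to 26 with each column left out, where fewer columns also raise the smallest p that can be reached. Without columns K and P, the farthest from the median of the log2 markers (added after seeing the data), 0 genes were called and 563 had an unadjusted p under 0.05, and rho turned to -0.214 for Slc6a8. With each column left out, rho with the markers ran from -0.119 to 0.452 for Gamt and from -0.381 to 0.0952 for Ckb, and it was 0.0833 for Ckb with the column sum without Ucp1 and mitochondrially encoded genes; the cause was not tested. The count of member pairs called was 0 in all 15 alternatives. Medians without the columns of highest and lowest muscle markers, an alternative chosen after seeing the data, moved by less than 1 SD. Gatm and Gamt are under 10 CPM and were not run at that filter, and the alternatives of the correlation with Ucp1 were run for the gap only. No paired analysis was possible because neither the guide nor a replicate number is known for a column. Depth limits Ckmt1, at 0 to 6 counts, and Gatm and Gamt, at 17 to 57.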

Other observations

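Ucp1 itself, the target of the guide in part of the animals, was at 396 CPM in column M, 445 in column R, 459 in column H, 606 in column Q, 2704.2 in column L, 3652.1 in column P, 3848.1 in column J, 3936.6 in column S and 4619.9 in column K. The gap between 606 and 2704.2 CPM was 60.9% of the log2 range. It was 60.9 to 73.1% of the range when another scaling was used or any column was left out. No column was given a guide from these values, and the creatine cycle genes were not compared across the gap.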
